A study of Mus musculus with 7 samples.

Results

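The genes described here encode the matrix metalloproteinases (MMPs), the ADAM and ADAMTS proteases, the ADAMTS-like proteins and the tissue inhibitors of metalloproteinases (TIMPs). They were taken by symbol as every protein-coding gene named Mmp, Adam, Adamts or Adamtsl with a number, or Timp1 to Timp4. This gave 83 genes, out of 53379 gene IDs in the count tables and 21865 protein-coding genes. They comprise 22 MMP, 33 ADAM, 19 ADAMTS, 5 ADAMTS-like and 4 TIMP genes. Mmp1a also fits the name, but is annotated as a polymorphic pseudogene, had 0 reads in every library and was left out.

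RNA was sequenced from mouse endometrial epithelium, the cell layer that lines the cavity and glands of the uterus, after magnetic sorting of dissociated uteri for the epithelial surface protein EPCAM. The 4 mutant libraries (label LtfCreBrg1flfl) represent 4 individual CD-1 animals, genotype LtfCre0/+; Brg1fl/fl, sampled at 120 days of age. Cre recombinase is driven in these mice by Ltf, the lactoferrin gene, and removes floxed Brg1 (gene symbol Smarca4), the motor subunit of SWI/SNF chromatin remodellers. The 3 wild-type CD-1 controls are pools of several animals, of an age that the sources used here do not give, and were reused from an earlier series with the note of a first flow cell. No Cre-only or floxed-only group was analysed here, so an effect of genotype cannot be told apart from one of library set, pooling or read depth. The same holds for age, which is not given for the controls.

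MMPs are secreted or membrane-bound zinc proteases that cut collagens, laminins and other matrix proteins, and most are made as inactive precursors. ADAMs are membrane-bound relatives that mainly cut other membrane proteins and so release growth factors and receptor domains, while ADAMTS enzymes are secreted and act on proteoglycans, procollagens and microfibrils. TIMPs bind the active sites of these proteases. In the rodent uterus the families take part in matrix remodelling around implantation and after birth, and matrilysin (Mmp7) is known as an MMP made by epithelium.

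Smarca4, the targeted gene, had 87.6, 56.7, 86.9 and 105.4 CPM in mutants 1 to 4, against 263, 245 and 279 CPM in controls 1 to 3. It fell by 1.64 ± 0.23 (SE) on the log2 scale (adjusted p = 0.00967 by the quasi-likelihood test of edgeR with Benjamini-Hochberg adjustment, used throughout), and the counts cover the whole gene. The call was lost when any 1 control was left out (edgeR adjusted p from 0.0532 to 0.0612). CPM here means counts per 1000000 reads after TMM scaling, which corrects library totals for a few very abundant genes. Gene reads numbered 12436971 to 13364080 in the mutant libraries and 21372036 to 25862245 in the control libraries, so 3 reads correspond to 0.183 to 0.235 CPM in mutants and to 0.136 to 0.159 CPM in controls, a limit for counting error alone. Mutant 1 stands apart: for 46.9% of 14610 genes tested, it was the mutant farthest from the mean of the other mutants in log2(CPM + 0.5). The 6 epithelial markers (Epcam, Cdh1, Krt7, Krt8, Krt18, Krt19) were detected in all libraries, with a summed level of 8160.4, 7936, 6482 and 6039 CPM in mutants and 13892, 13396 and 15653 CPM in controls. Summed markers of stromal fibroblasts (10 genes) were 222, 229, 601 and 195 CPM in mutants and 694, 824 and 735 CPM in controls, and those of leukocytes (10 genes) were 313, 421, 308 and 194 CPM in mutants and 446, 284 and 296 CPM in controls. Markers of other cell types were thus present in both groups. In such bulk libraries fewer cells of a type and less RNA per cell cannot be told apart.

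The promoters of 4 neighbouring MMP genes are shown first, because these genes lie in 1 cluster on chromosome 9 and all had lower mean levels in the mutants. They are the tested members of the cluster, and Mmp13 and Mmp12 entered the test through the controls alone. Each line gives the 100 bases before a start site in RefSeq (GRCm38.p6, plus strand, 5′ to 3′), with the AP-1 motif TGANTCA in capitals. AP-1 is the family of Jun and Fos transcription factors, a classical regulator of MMP genes. The stretches are chr9:7272414-7272513 for Mmp13, chr9:7502242-7502341 for Mmp10, chr9:7347274-7347373 for Mmp12 and chr9:7691990-7692089 for Mmp7.
Mmp13: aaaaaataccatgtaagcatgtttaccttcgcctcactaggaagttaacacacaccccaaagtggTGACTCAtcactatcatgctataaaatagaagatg
Mmp10: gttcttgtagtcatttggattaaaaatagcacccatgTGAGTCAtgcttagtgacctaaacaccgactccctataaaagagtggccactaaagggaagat
Mmp12: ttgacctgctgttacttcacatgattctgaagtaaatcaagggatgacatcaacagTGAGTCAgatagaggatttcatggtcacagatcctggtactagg
Mmp7: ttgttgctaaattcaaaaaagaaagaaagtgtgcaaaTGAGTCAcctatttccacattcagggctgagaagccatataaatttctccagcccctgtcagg
The motif began 35 bases before the start of Mmp13, 63 before those of Mmp10 and Mmp7, and 44 before that of Mmp12. The start of Mmp12 shown lies inside the annotated gene. Mmp12 and Mmp7 have a second RefSeq start each, without the motif in the 100 bases before it. Of the 83 genes, 52 matched a RefSeq promoter. Within 250 bases before the start, the AP-1 motif was found in 5 of 27 tested members with a promoter (Adam19, Mmp7, Mmp10, Mmp12 and Mmp13), against 7.82% of all 27025 genes with a promoter, a gene being counted where any of its promoters held the motif. The RUNX motif ACCACA was found in 7 of the 27, against 15.9% of all these genes, and the ETS motif AGGAAG in 11, against 32.3%. The 27 are tested genes, whereas the 27025 include genes that were not tested, so these shares are of unlike sets. Mmp7, Mmp10, Mmp12 and Mmp13 are also neighbours in 1 cluster. Of all 32851 promoters taken singly, 6.75% held the AP-1, 14.0% the RUNX and 29.5% the ETS motif. None of the 3 motifs contains another, both strands were searched for each, and a match describes the sequence and is no evidence that a factor binds. Mmp19 and Adamts4 are named without a promoter sequence.

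Of the 83 genes, 43 had enough reads to be tested, and 3 of these fell in the mutants while 0 rose (edgeR test with adjustment over all 14610 genes, threshold 0.05). Among all tested genes, 11.5% passed in either direction, 6.18% lower and 5.37% higher, beside 6.98% of the members, all lower. Of the 43, 5 reached the minimum of the filter through the controls and not through the mutants (Mmp12, Mmp13, Mmp17, Adamts15 and Adamtsl1) and 5 the other way round, so their selection is tied to the group in which they are higher. The genes that fell were the secreted proteases Mmp19, Mmp13 and Adamts4. At an unadjusted p under 0.05, 9 members were lower and 4 higher, against 14.6% lower and 16.4% higher of all genes, and by the DESeq2 test 6 were lower and 0 higher against a background of 11.3% lower and 12.4% higher. Without mutant 1, 10 members were lower and 1 higher, where the background was 14% lower and 15.5% higher. Of these 10, Mmp13, Adamts15 and Adamts8 entered that test through the controls alone. With total count scaling 2 were lower and 3 higher, against 3.64% and 15.1% of all genes. With any 1 control left out only Mmp19 passed, and of all genes 0.878%, 1.11% and 0.902% did, in the order of the control removed. The median log2 fold change of the tested members was −0.65, against 0.06 for all genes, with 26 negative and 17 positive values. Without any overlap between the groups were 7 lower and 2 higher members, where the background was 16.1% lower and 15.4% higher. By family, 13 MMPs were tested with a median of −0.87, 14 ADAMTS with −0.50, 3 TIMPs with −0.65 and 11 ADAMs with 0.38.

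**Figure D1:**
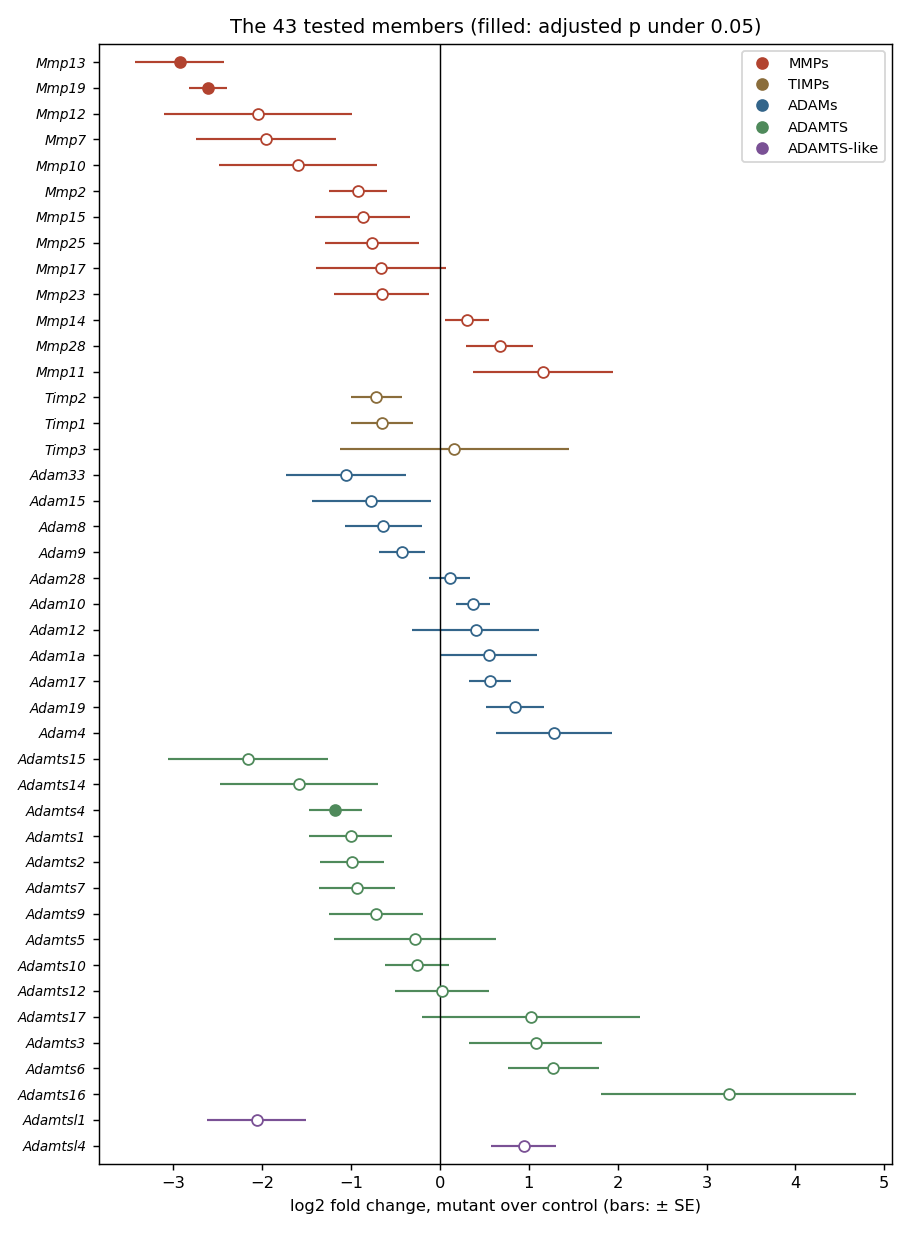
Log2 fold change, mutant over control, of the 43 tested members with standard errors as bars, grouped and coloured by family. The 3 filled points (Mmp13, Mmp19 and Adamts4) passed the edgeR test and lie at −2.93, −2.61 and −1.18; the open points did not pass.

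The other 40 members were too low to test. Of these, 14 had no read in any library and 19, these 14 included, had at most 3 reads in every library. They include 19 of the 21 ADAM genes outside the somatic groups, many of which are known from the testis, such as Adam2, Adam3 and Adam18. Of these 21 only Adam1a and Adam4 were tested, without passing, and 12 had no read.

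Mmp19 encodes a secreted protease that cuts basement membrane proteins and lies at chr10:128790910-128800824 (GRCm38, plus strand). It had 9.62, 11.0, 8.26 and 12.4 CPM in mutants 1 to 4, against 73.7, 59.8 and 56.1 CPM in controls 1 to 3. All mutants were low and close to each other, and the groups lay far apart. The mean was 10.3 ± 1.799 CPM in mutants and 63.2 ± 9.27 CPM in controls (SD, n = 4 and n = 3) or 6.11-fold lower in mutants (log2 difference −2.61 ± 0.21 SE; adjusted p = 0.00198 by the edgeR test). It passed in each of 14 alternatives without a replicate block, at adjusted p up to 0.0227, and had −2.53 (edgeR adjusted p = 0.00206) without mutant 1.

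Mmp13 (collagenase 3) opens fibrillar collagens and is the main collagenase of rodents; it lies at chr9:7272514-7283331 on the plus strand. It had 0.469, 1.69, 0.490 and 0.975 CPM in the mutants, against 5.70, 7.51 and 7.64 CPM in the controls. These rest on few reads, 6, 22, 7 and 16 in mutants and 108, 142 and 168 in controls. All controls were above all mutants, and the mutant level was 7.63-fold lower (log2 difference −2.93 ± 0.50 SE; adjusted p = 0.0169 by the edgeR test). Mmp13 entered the test through the controls alone, so its selection is tied to the group in which it is higher. Without mutant 1 the value was −2.68 (edgeR adjusted p = 0.00997), and the call was lost when any 1 control was left out (edgeR adjusted p from 0.0732 to 0.0854). The other 2 collagenases were hardly detected: Mmp1b had no read and Mmp8 had at most 5 reads in a library.

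Adamts4 (aggrecanase 1), which cuts the proteoglycans aggrecan and versican, lies at chr1:171250421-171260637 on the plus strand. It had 7.51, 13.7, 8.75 and 6.40 CPM in mutants, against 17.6, 21.7 and 22.4 CPM in controls. The groups did not overlap, but mutant 2 came closer to the controls than the others. Mutants were 2.26-fold lower (log2 difference −1.18 ± 0.30 SE; adjusted p = 0.0461 by the edgeR test). This call was near the threshold: it passed in 5 of 14 alternatives, with −1.06 (edgeR adjusted p = 0.0394) without mutant 1. It was lost without mutant 3 (edgeR adjusted p = 0.105), without mutant 4 (0.0904) and without any 1 control (0.133 to 0.163).

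**Figure D2:**
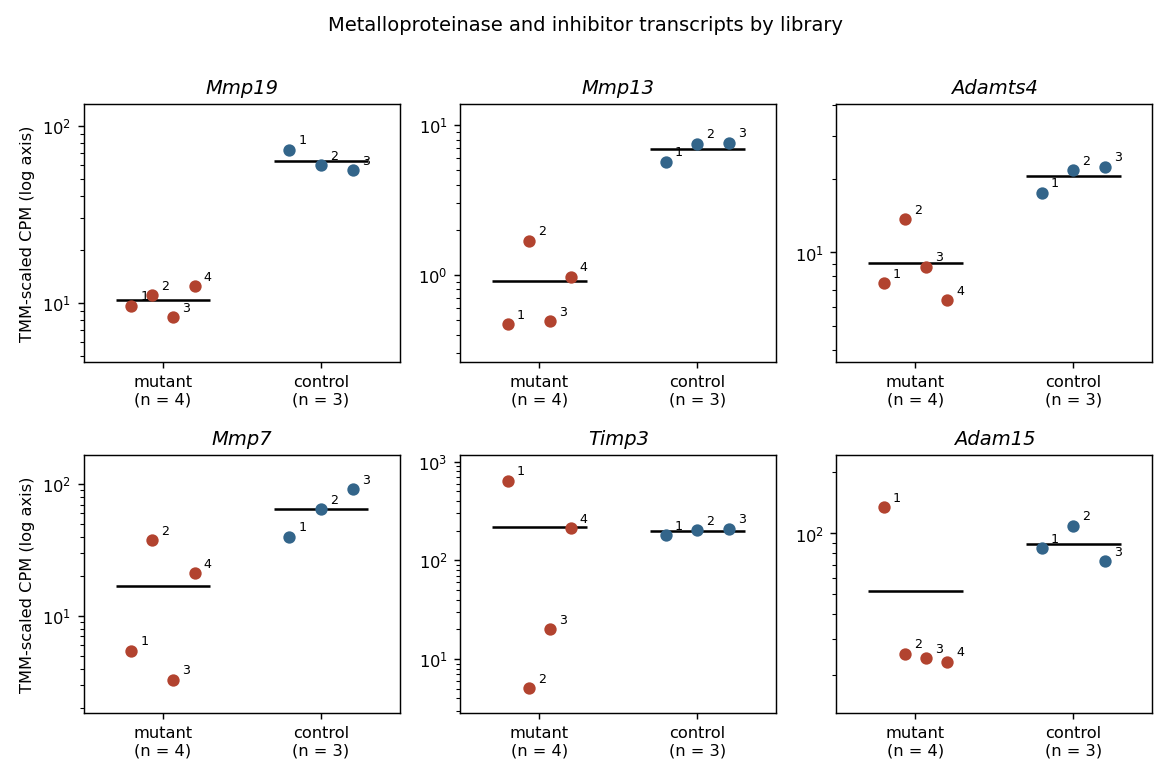
TMM-scaled CPM on log axes for 6 members, each point 1 library (4 mutants left, 3 controls right, numbered) and each line a group mean. Mmp19, Mmp13, Adamts4 and Mmp7 show no overlap between groups, while Timp3 (5.06 to 642 CPM) and Adam15 (23.3 to 135 CPM) are spread widely among the mutants.

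Mmp7 and the chromosome 9 cluster came next among the MMPs. The cluster holds 9 members between positions 7272514 and 7699585. The 4 that were tested (Mmp13, Mmp12, Mmp10 and Mmp7) all had negative values, of which Mmp13 passed. Mmp13 and Mmp12 entered the test through the controls alone, so their shared direction is tied to that selection. On few reads, the untested Mmp3 and Mmp27 had lower means in mutants, and Mmp8 and Mmp20 higher means. Mmp7, matrilysin, had 5.48, 37.4, 3.29 and 21.1 CPM in mutants, against 39.9, 64.4 and 91.6 CPM in controls. The highest mutant lay just under the lowest control, and the mutants differed among themselves by up to 11.4-fold (log2 difference −1.95 ± 0.79 SE; edgeR adjusted p = 0.141). Mmp12, macrophage elastase, had 0.156, 0.307, 0.140 and 3.41 CPM in mutants, against 2.90, 5.34 and 4.50 CPM in controls. Mutant 4 alone reached the controls. The value was −2.04 ± 1.06 SE (edgeR adjusted p = 0.232) with all libraries and −4.35 without mutant 4. In both fits Mmp12 entered the test through the controls alone. Mmp10, stromelysin 2, had −1.60 without passing (edgeR adjusted p = 0.264), and shares 8.37% of its 50-base words with Mmp3, so some of its reads are uncertain. Mmp3, stromelysin 1, was too low to test, with 1, 0, 0 and 2 reads in mutants and 16, 21 and 7 reads in controls. Mmp12, Mmp10 and Mmp3 were singled out after their values were seen.

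The gelatinases, which cut denatured collagen and type IV collagen, gave different pictures. Mmp2 had 9.70, 5.29, 6.51 and 5.18 CPM in mutants, against 15.4, 13.7 and 8.96 CPM in controls, with overlap through mutant 1 and control 3 (log2 fold change −0.93 ± 0.33 SE; edgeR adjusted p = 0.106, and −1.12 at edgeR adjusted p = 0.0271 without mutant 1). Mmp2 is known as a product of stromal cells. Of the 10 stromal fibroblast markers only Dcn passed (−1.77 on the log2 scale). The median of the 10 was −0.77, with 9 negative values and 1 positive (Postn, 0.03). Among mutants their sum was highest in mutant 3 (601 CPM), whereas Mmp2 was highest in mutant 1. The part of stromal RNA in the value of Mmp2 was not tested. Mmp9 was not tested because it was nearly absent from 6 libraries. It had 0.313, 0.153, 0.630 and 16.9 CPM in mutants, 277 reads in mutant 4 and at most 9 in another mutant, against 0.686, 0.688 and 0.364 CPM in controls. In the same library the neutrophil genes S100a8 and S100a9 stood at 17.6 and 31.4 CPM, against at most 0.910 and 1.61 CPM in the other mutants and at most 1.22 and 2.32 CPM in controls. Csf3r and Cxcr2 were also highest in mutant 4, with 26.5 and 8.17 CPM. Other genes of the list were not high there: Ly6g had 0.313, 2.91, 3.36 and 0.609 CPM in mutants and 3.11, 2.75 and 4.501 CPM in controls, and Mpo had 2, 2, 4 and 1 reads in mutants and 29, 13 and 14 reads in controls. Over all 7 neutrophil markers the summed level was 6.96, 8.28, 10.9 and 84.5 CPM in mutants and 10.4, 10.9 and 12.6 CPM in controls, while Elane had 3 reads in mutant 4 only. The part of these cells in the Mmp9 level of mutant 4 was not tested.

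Of the 7 membrane-anchored MMPs, 5 were tested and none passed. Mmp14 (MT1-MMP), which activates the Mmp2 precursor, had 172, 126, 161 and 246 CPM in mutants, against 165, 125 and 139 CPM in controls. The groups overlapped (log2 fold change 0.30 ± 0.25 SE; edgeR adjusted p = 0.447). Mmp15 (MT2-MMP) had 230.4, 56.4, 45.5 and 137 CPM in mutants, against 233, 202 and 208 CPM in controls. Mutant 1 was level with the controls and the other mutants were below them (−0.87 ± 0.54 SE, edgeR adjusted p = 0.310; −1.37 at edgeR adjusted p = 0.0467 without mutant 1). Mmp23 had a value of −0.66 (edgeR adjusted p = 0.438) and Mmp25, known from leukocytes, −0.77 (edgeR adjusted p = 0.367). Of the remaining secreted MMPs, Mmp28 (epilysin), an MMP of epithelia, had 0.67 (edgeR adjusted p = 0.270). Mmp11 (stromelysin 3) had 0.704, 0.921, 1.47 and 5.42 CPM in mutants, against 1.21, 1.11 and 0.546 CPM in controls, high in mutant 4 only (1.16, edgeR adjusted p = 0.355).

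None of the 3 tested inhibitors passed. Timp1, a secreted inhibitor of most MMPs, had 15.3, 15.5, 6.65 and 10.2 CPM in mutants, against 15.5, 15.9 and 24.6 CPM in controls. The ranges only just did not overlap (log2 fold change −0.65 ± 0.35 SE; edgeR adjusted p = 0.251). Timp2, which also helps Mmp14 activate Mmp2, had 35.7, 15.9, 24.3 and 25.8 CPM in mutants, against 48.5, 43.6 and 33.3 CPM in controls, overlapping through mutant 1 (−0.72 ± 0.29 SE, edgeR adjusted p = 0.140; −0.88 at edgeR adjusted p = 0.0371 without mutant 1). Timp3, a matrix-bound inhibitor that also acts on ADAM17, had 642, 5.06, 20.03 and 213 CPM in mutants, against 179, 203 and 209.8 CPM in controls. Mutant 1 was above the controls, mutant 4 level with them and mutants 2 and 3 far below. Its SD of log2(CPM + 0.5) was 3.12 among mutants and 0.12 among controls, the widest mutant spread of the 43 tested members, and the mean difference was 0.16 ± 1.29 SE (edgeR adjusted p = 0.947). Its value turned negative in 3 alternatives, to −1.68 with limma-voom, −2.73 with a replicate block and −1.24 without mutant 1. Summed markers of smooth muscle and pericytes ranked the mutants in the same order as Timp3, at 85.6, 8.13, 15.3 and 30.7 CPM in mutants and 111, 70.9 and 71.6 CPM in controls. Of that list Acta2, Cnn1 and Tagln had this order, but Myh11, Des, Pdgfrb and Actg2 were lowest in mutant 4 (0.183, 0.792, 0.0609 and 0 CPM). Summed endothelial markers, in the same order, were 26.0, 5.37, 7.07 and 24.4 CPM in mutants and 27.5, 29.5 and 22.5 CPM in controls. Of the epithelial markers only Krt18 shared the order, at 3143, 589, 647 and 1268 CPM in mutants 1 to 4. Krt19 had the reverse order, at 179, 2232, 1700 and 796 CPM. Epcam, Cdh1, Krt7 and Krt8 had other orders. The part of any of these cells in the Timp3 level was not tested. Timp4 had 1 read in mutant 4 and 1 in control 3.

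**Figure D3:**
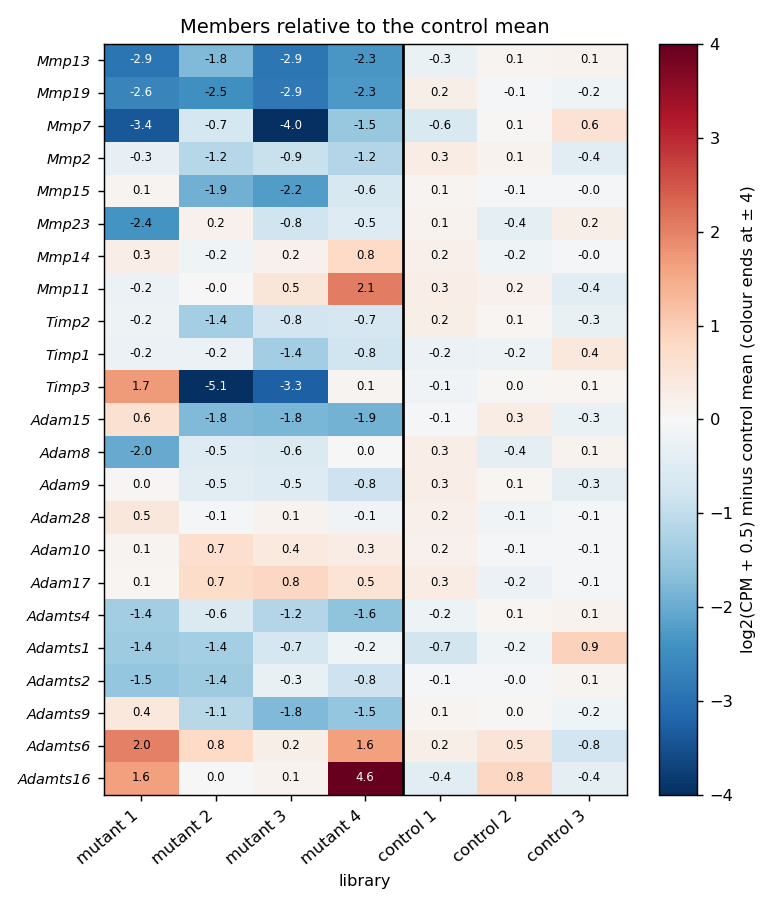
Log2(CPM + 0.5) minus the control mean for 23 members in each library (columns, 4 mutants left of 3 controls), with red above and blue below the control mean and colour ending at 4. Mmp13, Mmp19 and Adamts4 are below the controls in all 4 mutants, whereas Timp3, Adam15, Adamts9 and Mmp15 differ between mutants.

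All 9 catalytic ADAMs of somatic tissue were tested and none passed. Adam10, the main sheddase of Notch receptors and E-cadherin, had 227, 337, 276 and 263 CPM in mutants, against 239, 200.1 and 198 CPM in controls. Mutants 2 to 4 were above the controls and mutant 1 was among them (log2 fold change 0.38 ± 0.19 SE; edgeR adjusted p = 0.223). Adam17, which releases TNF and several ligands of the EGF receptor, had 72.7, 113, 123 and 99.0 CPM in mutants, against 84.1, 57.5 and 65.7 CPM in controls. It showed the same order of libraries relative to the controls (0.56 ± 0.24 SE, edgeR adjusted p = 0.155; 0.74 at edgeR adjusted p = 0.0246 without mutant 1). Under total count scaling, which moves the median of all genes to 0.41, Adam10 (0.73, edgeR adjusted p = 0.0430) and Adam17 (0.92, edgeR adjusted p = 0.0456) passed as higher, and so did Adam19 (1.19, edgeR adjusted p = 0.0465). With TMM scaling Adam19, which was singled out after its values were seen, had 7.59, 4.07, 4.55 and 5.61 CPM in mutants, against 3.27, 3.17 and 2.64 CPM in controls. Every mutant was above every control (0.85 ± 0.33 SE, edgeR adjusted p = 0.128).

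Adam9, a widely expressed sheddase, had 353, 247, 237 and 194 CPM in mutants, against 410.3, 359.8 and 268 CPM in controls (−0.43 ± 0.25 SE, edgeR adjusted p = 0.295). The groups overlapped. Adam15, which carries an integrin-binding motif, had 135, 25.5, 24.2 and 23.3 CPM in mutants, against 84.6, 109 and 73.1 CPM in controls. Mutants 2 to 4 were tightly grouped under the controls and mutant 1 was above them (−0.78 ± 0.67 SE, edgeR adjusted p = 0.468; −1.83 at edgeR adjusted p = 0.00306 without mutant 1). Adam8, known from myeloid cells, had 24.2, 68.7, 65.7 and 101 CPM in mutants, against 119, 74.9 and 109 CPM in controls, with overlap through mutant 4 (−0.64, edgeR adjusted p = 0.355). Adam28 was close in both groups, at 19.2 ± 3.96 CPM in mutants and 17.8 ± 2.38 CPM in controls (SD, n = 4 and n = 3; 0.11 ± 0.23 SE). Adam12, known from mesenchymal cells and the placenta, had 2.66, 6.29, 12.6 and 1.22 CPM in mutants, against 4.75, 3.70 and 4.46 CPM in controls, so mutants lay on both sides of the controls. Adam33 had a value of −1.05 (edgeR adjusted p = 0.330). Of the ADAMs that lack a working catalytic site, Adam22 had 5, 4, 11 and 20 reads in mutants and 3, 4 and 2 reads in controls and was not tested, like Adam11 and Adam23.

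Among the proteoglycan-cleaving ADAMTS genes all 5 that were tested had negative values, and Adamts4 passed. Adamts1, a protease of versican with a role in ovulation in mice, had 20.6, 21.6, 34.5 and 49.5 CPM in mutants, against 33.9, 49.7 and 107 CPM in controls. Mutants 3 and 4 reached above control 1 and no further (log2 fold change −1.01 ± 0.46 SE; edgeR adjusted p = 0.185). Adamts9, another versican protease, had 226, 76.9, 48.3 and 56.7 CPM in mutants, against 181, 173 and 149 CPM in controls. As for Adam15, mutants 2 to 4 were below the controls and mutant 1 above them (−0.71 ± 0.53 SE, edgeR adjusted p = 0.397; −1.42 at edgeR adjusted p = 0.00668 without mutant 1). Adamts15, which entered the test through the controls alone, had −2.16 (edgeR adjusted p = 0.152). Adamts8 was too low to test, with 7, 3, 1 and 1 reads in mutants and 26, 34 and 15 reads in controls. The other tested member of this group was Adamts5 (−0.28).

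Adamts2, the main procollagen N-proteinase, had 3.75, 4.14, 9.45 and 6.40 CPM in mutants, against 11.1, 11.5 and 12.9 CPM in controls. The groups did not overlap (−0.99 ± 0.36 SE, edgeR adjusted p = 0.113), and mutant 3, the highest of the mutants, also had the most stromal marker RNA among them (601 CPM). Mutant 4 was next highest for Adamts2 but had the least stromal marker RNA (195 CPM). The part of stromal RNA in the Adamts2 value was not tested. Among the other ADAMTS 4 of 6 tested genes had positive values, none of which passed. Of these, Adamts12 and Adamts16 entered the test through the mutants alone. Adamts6 had 43.8, 18.5, 12.4 and 33.5 CPM in mutants, against 12.5, 15.02 and 6.001 CPM in controls, with overlap through mutant 3 (1.28 ± 0.51 SE, edgeR adjusted p = 0.139). Adamts16 had 4.07, 0.997, 1.12 and 36.1 CPM in mutants, against 0.580, 2.12 and 0.636 CPM in controls. Mutant 4 stood far above the others (3.25 ± 1.44 SE, edgeR adjusted p = 0.171), and without it the value was 0.90 (edgeR adjusted p = 0.504). Adamts10, a microfibril protein, had −0.25 and Adamts17 1.02, neither past the threshold (edgeR adjusted p = 0.667 and 0.605). The ADAMTS-like proteins have no protease domain. Adamtsl1 had 0.548, 0.230, 1.12 and 1.402 CPM in mutants, against 3.69, 3.33 and 3.501 CPM in controls, without overlap and just outside the threshold (−2.06 ± 0.56 SE, edgeR adjusted p = 0.0542). It entered the test through the controls alone. Adamtsl4 had 3.29, 5.60, 3.36 and 5.49 CPM in mutants, against 2.95, 2.01 and 1.95 CPM in controls (0.94 ± 0.36 SE, edgeR adjusted p = 0.130). Every mutant was above every control, but the value was −0.16 with unstranded counts, which also take reads of the opposite strand.

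The members differed between mutant mice more than between control pools. The median SD of log2(CPM + 0.5) over the 43 tested members was 0.62 among mutants and 0.31 among controls, and 39 of 43 varied more among mutants. Over all genes the medians were 0.48 and 0.22, with 84.3% varying more among mutants, and since each control is a pool of mice, genotype and pooling cannot be told apart here. The mutant libraries also held fewer gene reads, as given above, and the part of counting error in these spreads was not tested. Mutant 1 was the farthest mutant for 13 of the 43 members, mutant 2 for 12, mutant 3 for 7 and mutant 4 for 11.

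Per length, in CPM per kilobase of exon, Adam9 took 20.1% of all member RNA on average in mutants and 19.5% in controls. It was the first of the members in mutants 1 and 3 and in controls 1 and 2, while Adam10 was first in mutants 2 and 4 and Mmp7 in control 3. Mmp7 took 5.15% in mutants and 14.2% in controls, and Mmp19 0.952% in mutants and 4.15% in controls. Adam10 took 18.7% in mutants and 10.03% in controls, Mmp14 9.62% in mutants and 5.56% in controls, and Adam17 4.84% in mutants and 2.23% in controls. The share of Timp3 ran from 0.212% to 19.9% between mutants and from 5.03% to 5.99% between controls. Shares sum to a whole, so a larger share of one gene follows in part from a smaller share of another. The summed level of the MMPs was 440.0, 274, 252 and 479 CPM in mutants and 576, 509.8 and 556 CPM in controls, without overlap. That of the ADAMs was 854, 827, 768 and 708 CPM in mutants and 975, 830.3 and 746 CPM in controls, with overlap, and that of the TIMPs ran from 36.4 to 693 CPM in mutants and from 243 to 268 CPM in controls.

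A list of 75 genes was examined beside the members. It holds genes that activate, inhibit, induce or partner these proteases or are cut by them, transcription factors of MMP promoters, and 11 related metalloproteinases outside the named families. Cst3, placed with the inhibitors, acts on cysteine proteases and not on the families described here. Of the 64 tested genes of the list 15 fell and 0 rose by the edgeR test, which is 23.4% against a background of 6.18% lower. At an unadjusted p under 0.05, 24 were lower and 1 higher, where 14.6% of all genes were lower and 16.4% higher. The DESeq2 test called 20 lower and 1 higher, against 11.3% and 12.4% of all genes. The median of the list was −0.66, against 0.06 for all genes. The count was 6 without mutant 3 and 7 with total count scaling, and all 15 calls were lost when any 1 control was left out. The list was chosen with earlier results of these data known, so these comparisons with all genes are no independent test.

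For the groups of the list, 6.18% of all genes lower is the background. Among the activating proteases 1 of 11 tested genes fell, the urokinase Plau, which makes plasmin, an activator of MMP precursors. Plau had 34.7, 105, 142 and 147 CPM in mutants, against 901, 516 and 1079 CPM in controls. The groups were far apart (log2 fold change −2.95 ± 0.51 SE; edgeR adjusted p = 0.0172). Furin, the convertase that activates membrane-type MMPs and ADAMs, overlapped between groups, with 264, 453, 237 and 248 CPM in mutants and 447, 329 and 466 CPM in controls (−0.46, edgeR adjusted p = 0.303). Of 5 tested inhibitors outside the TIMPs, Cst3 (cystatin C, an inhibitor of cysteine proteases) fell, with 142, 107, 89.6 and 74.5 CPM in mutants and 216, 287 and 262 CPM in controls (−1.30 ± 0.25 SE, edgeR adjusted p = 0.0215). Among 6 tested relatives outside the named families, Tll1, a procollagen C-proteinase, fell (−1.94 ± 0.47 SE, edgeR adjusted p = 0.0403). None of the 8 inducers and cofactors passed.

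Of 8 tested partners of ADAM10 and ADAM17, 2 fell, where 6.18% of all genes were lower. Both were iRhoms, which bring ADAM17 to the cell surface. Rhbdf1 (iRhom1) had 20.6, 38.7, 40.2 and 56.2 CPM in mutants, against 161, 135 and 153 CPM in controls (−1.94 ± 0.31 SE, edgeR adjusted p = 0.0145). Rhbdf2 (iRhom2) had 58.7, 98.8, 75.2 and 84.7 CPM in mutants, against 192, 176 and 229.8 CPM in controls (−1.33 ± 0.22 SE, edgeR adjusted p = 0.0145). For both genes every mutant was below every control, while Adam17 itself, given above, had a positive value that did not pass. Among 13 tested substrates of ADAM10 and ADAM17, 4 fell, beside the same 6.18% of all genes. The EGF receptor ligand Ereg (epiregulin) had 0.860, 0.690, 0.210 and 1.04 CPM in mutants, against 8.18, 4.55 and 7.46 CPM in controls (−3.25 ± 0.53 SE, edgeR adjusted p = 0.0145). The cytokine Tnf had 2.66, 5.75, 6.58 and 13.0 CPM in mutants, against 29.1, 27.6 and 26.3 CPM in controls (−1.98 ± 0.47 SE, edgeR adjusted p = 0.0391). E-cadherin (Cdh1, −0.91) and the interleukin 6 receptor Il6ra (−0.71) also fell, and neither gene overlapped between groups.

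**Figure D4:**
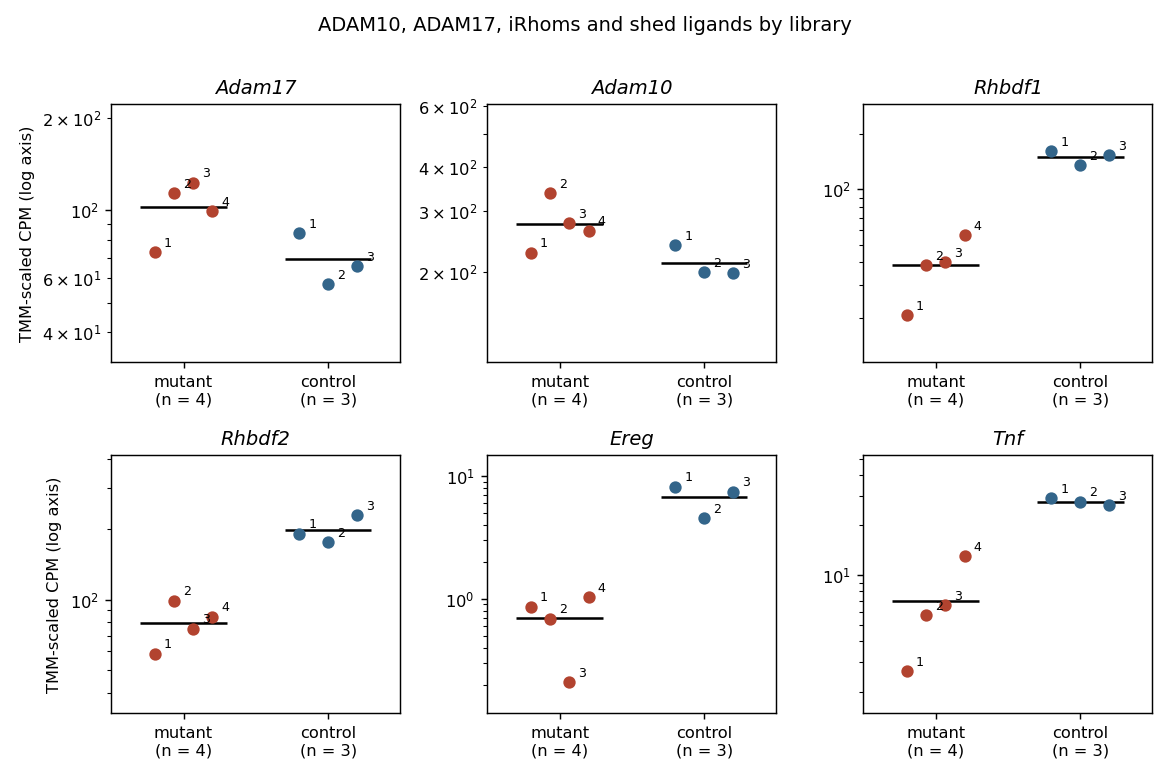
TMM-scaled CPM on log axes for Adam17, Adam10, Rhbdf1, Rhbdf2, Ereg and Tnf, each point 1 library (4 mutants left, 3 controls right, numbered) and each line a group mean. Adam17 and Adam10 overlap between groups, while Rhbdf1, Rhbdf2, Ereg and Tnf are lower in every mutant than in every control.

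Among 13 transcription factors known to act on MMP promoters, all tested, 6 fell and 0 rose, where 6.18% of all genes were lower and 5.37% higher. Of the 13 values 9 were negative and 4 positive. Ets1 had 20.7, 20.3, 18.3 and 49.3 CPM in mutants, against 135, 109 and 188 CPM in controls (log2 fold change −2.41 ± 0.40 SE; edgeR adjusted p = 0.0159). Its relative Ets2 had −1.27 ± 0.29 SE, and Runx1 had 112, 66.8, 63.0 and 83.3 CPM in mutants, against 235, 231 and 175 CPM in controls (−1.40 ± 0.24 SE, edgeR adjusted p = 0.0182). The ETS genes Elf3, Etv4 and Etv5 had positive values without passing, 0.39, 0.74 and 1.36 (edgeR adjusted p = 0.617, 0.535 and 0.182). Runx2 did not pass either (−0.27, edgeR adjusted p = 0.828). Among the AP-1 genes, whose motif is shown above for 4 MMP promoters, Fosl1 fell (−1.40 ± 0.32 SE, edgeR adjusted p = 0.0349) and Junb fell (−1.02 ± 0.24 SE, edgeR adjusted p = 0.0366). The other 3 AP-1 genes overlapped between groups and did not pass, Fos with 0.31 (edgeR adjusted p = 0.619), Jun with −0.44 (0.385) and Fosl2 with −0.43 (0.264). Fosl1 had 110.0, 79.1, 62.7 and 141 CPM in mutants, against 295, 182 and 303 CPM in controls. Junb had 501, 799, 553 and 467 CPM in mutants, against 1158, 1077 and 1304 CPM in controls. The NF-kB subunit Rela passed by little (−0.88 ± 0.23 SE, edgeR adjusted p = 0.0499). For these 6 factors no mutant reached a control, and no link to the MMP levels was tested.

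Of the 83 members, 65 are listed in the authors' deposited table, 3 of them past an adjusted p of 0.05 as higher, 5 as lower, 50 not past it and 7 without an adjusted p. In the authors' deposited table the lower genes are Mmp3 (−3.87), Mmp13 (−2.93), Mmp19 (−2.60), Adamtsl1 (−2.07) and Adamts4 (−1.17). The higher genes in the authors' deposited table are Adamts16 (3.25), Adam22 (2.17) and Adamts6 (1.28), none of which passed the edgeR test used here. Over all genes of the authors' deposited table, 17.2% of 18092 passed, 8.34% lower and 8.85% higher.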

How the data were processed

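The authors deposited, for each of 7 libraries, raw STAR counts per gene in whole numbers. The reverse-stranded column was used, which held 94.8% to 95.6% of the stranded reads. Per the submitters' processing notes, cutadapt, Trim Galore, FastQC, STAR, DESeq2 and mm10 were used; the sources used here do not give versions or read layout. Libraries are directional, per the labels' protocols. The authors' deposited comparison table gives log2 fold changes and adjusted p-values per gene.

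Symbols and coordinates come from GENCODE M21 (GRCm38), matched for 53274 of 53379 IDs. After filterByExpr, edgeR 4.0.16 in R 4.3.3 was used for the test (quasi-likelihood F test, TMM, genotype only, two-sided, Benjamini-Hochberg over 14610 genes, threshold 0.05). The log2 fold changes are mutant over control. CPM is per 1000000 reads of the TMM-scaled library. The test was tried on simulated data. Each pair of replicates differed beyond sampling noise. DESeq2 1.42.0, limma 3.58.1 (voom), other scalings, no filter, unstranded counts, a replicate block and leaving out each library were alternatives. Mutants are separate mice and controls pools, which may share mice, so the p-values reflect only differences among these 7 samples.

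The members and lists were chosen with earlier results of these data known. Named members were those past the threshold, those with a mean of at least 10 CPM in either group, all TIMPs and 8 fixed genes; Smarca4 and every listed regulator past the threshold were added. Other members described with values, and Furin, were named after their values were seen. Results of all marker lists are given: epithelium, 2 of 6 tested genes lower; stromal fibroblasts, 1 of 10; smooth muscle, endothelium, leukocytes, neutrophils and mesothelium, 0 of 7, 7, 9, 4 and 5. Over all tested genes 6.18% were lower. Summed mesothelial markers were 9.39, 18.6, 13.0 and 39.8 CPM in mutants and 45.3, 58.6 and 43.2 CPM in controls.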

Additional observations from a re-analysis of the deposited data

Results flagged for a closer look

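In 9 of the 54 genes examined this way, 1 mutant library lay apart from the other 3 by more than Dixon's 95% criterion for 4 values allows. Chance alone exceeds it in about 1 in 20 groups that are chosen without regard to their values. The 54 were not chosen so, hence the count of 9 cannot be set against that rate. Of them 13, with Mmp12 and Furin, were named after their values were seen, and Adamts16 met the 10 CPM rule (mean 10.6 CPM in mutants) through mutant 4. In mutant 4 the flagged genes were Mmp9 (16.88 CPM), Mmp11 (5.424 CPM), Mmp12 (3.413 CPM), Adamts16 (36.14 CPM), the transcription factor Ets1 (49.31 CPM) and Timp4, where 1 read gave 0.06095 CPM. In mutant 1 they were Adam15 (134.9 CPM) and Adamts9 (225.9 CPM), and in mutant 2 the convertase Furin (453.4 CPM). Each was the highest of the 4 mutants. For Mmp12 the highest mutant was the only one within the range of the controls, and for Ets1 it stayed below all controls. The summed neutrophil markers were also highest in mutant 4 (84.5 CPM), through S100a8, S100a9, Csf3r and Cxcr2, while Ly6g (0.609 CPM) and Mpo (1 read) were not high there; their part in these values was not tested.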

How the results depend on the processing

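With 15 alternatives, Mmp19 kept its call in all but the replicate block. The count of members lower (3 as reported) was 6 by the DESeq2 test, 0 with the replicate block and between 1 and 10 when 1 library was left out, 10 being without mutant 1 and 1 without each control. The count of members higher (0 as reported) was 3 with total count scaling and between 0 and 1 when 1 library was left out. Of the listed regulators, 15 were lower as reported, 7 with total count scaling, 0 with the replicate block and between 0 and 20 when 1 library was left out, with 6 without mutant 3 and 0 without each control. The count of regulators higher (0 as reported) was 1 by the DESeq2 test (Pcsk5) and between 0 and 2 when 1 library was left out. In the replicate block, same-numbered mutant and control libraries deviated with correlations of −0.02, −0.36 and 0.16, so the numbers do not pair the samples; this paired fit uses 3 more terms and called 2 genes over all, and 0 members. The cause of the other changes was not tested. Values that changed sign were Timp3 (−1.68 with limma-voom, −2.73 with the replicate block, and from −1.24 without mutant 1 to 0.57 without mutant 2 when 1 library was left out), Adam12 (−0.12 with limma-voom, and from −0.34 without mutant 3 to 0.75 without mutant 4 when 1 library was left out), Adamts17 (−0.36 with limma-voom, −0.97 with the replicate block), Adamtsl4 (−0.16 with unstranded counts) and Adamts10 (0.10 with total count scaling). With unstranded counts Adam22 passed as lower (−1.85). The median of all genes was 0.06 with TMM scaling, 0.41 with total counts and 0.20 with upper quartiles. Depth limits the low members: Mmp13, Mmp12, Mmp3 and Adamts8 had at most 56 reads in a mutant, and 40 members could not be tested.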
